A study of Mus musculus with 6 samples.

Results

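The genes described here are 42 genes that act in mitosis and at the spindle checkpoint, of which 41 had a probe set named for them alone among 18193 genes measured on the arrays. Each gene was represented by its probe set with the highest mean log2 signal over the 6 arrays. No probe set of the annotation used here carried the name of cyclin B1 (Ccnb1), so its RNA is not analysed here. Total RNA came from the proximal colon of 6 mouse littermates aged 1 year, kept free of pathogens and killed after an injection of ketamine and xylazine. The 3 mutants (mutant replicates 1, 2 and 3) carried loxP sites in both copies of Hnf4α and a Cre driven by a long Villin promoter, which removes part of the gene in intestinal epithelial cells. The 3 controls are labelled wildtype, and whether they carried Cre or loxP sites is not given in the sources used here. Because the deletion is confined to the epithelium while whole tissue was extracted, the arrays also read muscle, stroma and immune cells, in which Hnf4α was not targeted. In such samples a larger number of dividing cells and more mitotic RNA per cell cannot be told apart.

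A cell that divides raises cyclin B and its kinase CDK1, condenses its chromosomes with condensin, and builds a bipolar spindle with kinesins and the kinases Aurora A and PLK1. Kinetochores, which rest on the histone variant CENP-A, attach chromosomes to microtubules, and the spindle checkpoint holds back the anaphase-promoting complex until every attachment is made. CDC20 and UBE2C then let that complex destroy securin and cyclin B, separase cuts cohesin, and the cell is split by the central spindle and a contractile ring. In the colon such cells lie in the lower part of the crypts, above and among the stem cells, and their daughters stop dividing as they move towards the surface. Most of these genes are transcribed late in the cell cycle, when MuvB, B-MYB and FOXM1 act on a promoter element called the cell cycle genes homology region (CHR) with the CCAAT-binding factor NF-Y, while in resting cells the DREAM complex represses them through the same element.

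The promoters of the genes are shown first because that shared element is visible in them. RefSeq promoters (GRCm38.p6, 250 bases before to 50 bases after the annotated start) were available for 34 of the 42 genes, Ccnb1 included. The 200 bases before the start are printed for Ccnb2, Cdk1, Cdc20 and Top2a, which hold CHR and CCAAT letters in different layouts, for Bub1b, the gene that passed the test between the groups, and for Pttg1, which held neither. Capitals mark TTTGAA and TTCGAA, 2 forms of the CHR core, CCAAT, and TTTCGCGC, a form of the E2F site, each read on both strands, so that ATTGG is CCAAT and TTCAAA is TTTGAA on the other strand. The Ccnb2 stretch is at chr9:70421555-70421754, minus strand, that of Cdk1 at chr10:69352913-69353112, minus strand, that of Cdc20 at chr4:118437344-118437543, minus strand, that of Top2a at chr11:99024190-99024389, minus strand, that of Bub1b at chr2:118598011-118598210, plus strand, and that of Pttg1 at chr11:43425982-43426181, minus strand. All are written 5′ to 3′ in the direction of the gene, so that the last base is the one before the start.
Ccnb2: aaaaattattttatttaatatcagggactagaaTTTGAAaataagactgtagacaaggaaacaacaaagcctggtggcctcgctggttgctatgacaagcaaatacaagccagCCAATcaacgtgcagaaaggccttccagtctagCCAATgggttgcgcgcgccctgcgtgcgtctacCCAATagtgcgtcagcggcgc
Cdk1: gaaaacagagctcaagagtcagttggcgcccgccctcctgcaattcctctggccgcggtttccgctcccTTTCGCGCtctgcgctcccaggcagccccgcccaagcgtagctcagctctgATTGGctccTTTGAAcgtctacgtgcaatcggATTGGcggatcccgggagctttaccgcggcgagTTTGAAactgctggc
Cdc20: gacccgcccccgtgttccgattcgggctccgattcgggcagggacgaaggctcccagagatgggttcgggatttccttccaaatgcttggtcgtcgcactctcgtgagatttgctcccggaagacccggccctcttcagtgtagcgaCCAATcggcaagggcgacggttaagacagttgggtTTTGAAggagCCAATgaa
Top2a: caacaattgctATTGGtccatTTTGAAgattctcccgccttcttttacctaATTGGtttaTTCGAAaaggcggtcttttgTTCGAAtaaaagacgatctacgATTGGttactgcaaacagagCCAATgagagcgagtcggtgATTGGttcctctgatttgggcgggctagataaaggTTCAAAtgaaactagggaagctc
Bub1b: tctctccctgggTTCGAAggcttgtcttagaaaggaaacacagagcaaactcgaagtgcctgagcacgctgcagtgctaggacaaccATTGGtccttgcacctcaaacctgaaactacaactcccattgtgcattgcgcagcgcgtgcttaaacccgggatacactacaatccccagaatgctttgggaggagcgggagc
Pttg1: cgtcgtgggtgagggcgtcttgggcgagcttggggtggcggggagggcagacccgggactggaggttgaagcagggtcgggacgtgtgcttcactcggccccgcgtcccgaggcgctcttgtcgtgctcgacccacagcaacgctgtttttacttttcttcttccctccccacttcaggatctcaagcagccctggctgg

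Positions are counted from the first transcribed base, and a motif is placed by its first base. Ccnb2 carried CCAAT at -87, -54 and -21, TTTGAA at -167 and a further TTTGAA at 5, inside the transcript and past the printed stretch. Cdc20 had TTTGAA at -18 between CCAAT boxes, Cdk1 had it at -71 and -15, and Top2a held 6 CCAAT boxes and both CHR forms. Bub1b held TTCGAA and a CCAAT box in the printed stretch and TTTGAA at 41. Of the 34 genes with a promoter, 26 (76.5%) held TTTGAA or TTCGAA, against 17.5% of 14452 genes measured on the arrays that had a promoter. CCAAT was found in 25 (73.5%), against 42.0%, and CCAAT together with either CHR form in 23 (67.6%), against 7.1%. Over all 27025 genes with a promoter in that table, measured or not, the shares were 21.7% for either CHR form, 41.1% for CCAAT and 8.6% for both. A CHR form whose first base lay between 30 bases before and 50 bases after the start, a window chosen after the positions were seen, was present in 24 genes (70.6%), against 3.7% of measured genes. The E2F forms TTTGGCGC and TTTCGCGC together were found in 1 promoter, that of Cdk1 (2.9%), against 1.5%. Neither CHR form was found in the windows of Birc5, Ccnb1, Cenpe, Mad2l1, Ncaph, Nuf2, Nusap1 or Pttg1. Genes of DNA replication and S phase held CHR letters in 6 of 28 promoters (21.4%) and CCAAT in 18 (64.3%), and 58 further mitosis genes held CHR letters in 39 (67.2%). These are matches of letters and are given without a test.

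**Figure D1:**
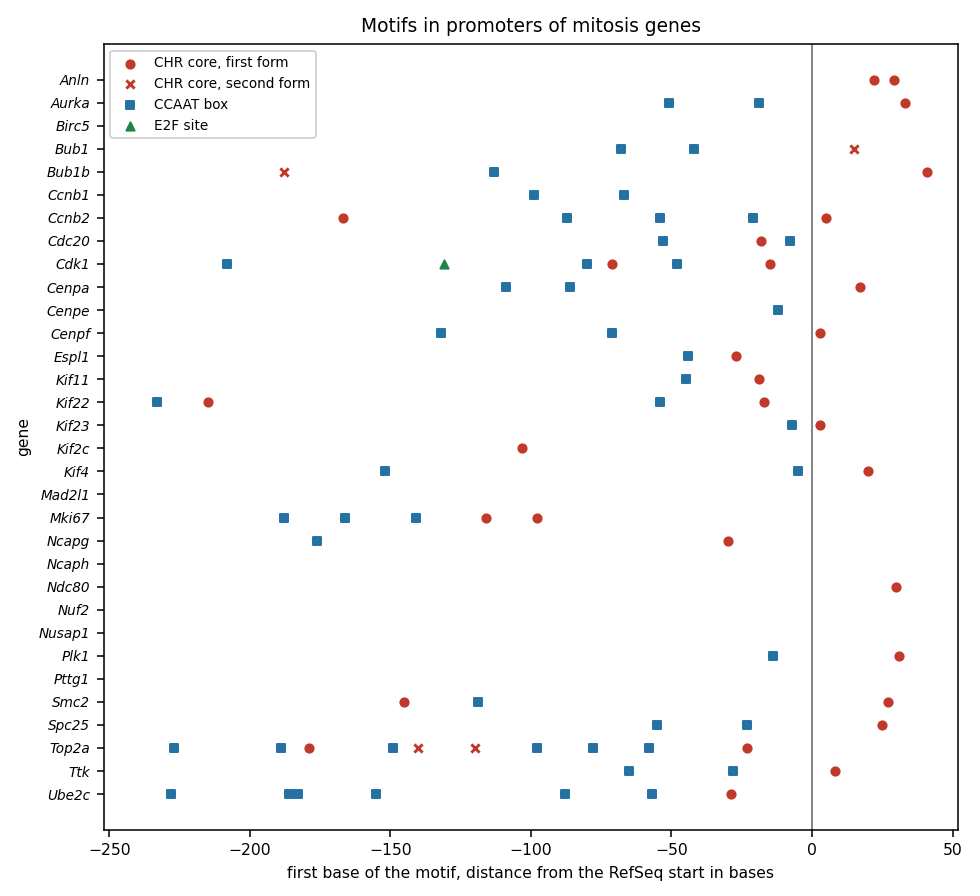
Position of the first base of each motif (horizontal axis, bases from the RefSeq start; circles and crosses, the CHR forms TTTGAA and TTCGAA; squares, CCAAT; triangles, TTTCGCGC; both strands) in the 32 genes with a single promoter window, 1 gene a row. CHR letters crowd around the start, with CCAAT boxes mostly before them, and the rows of Birc5, Mad2l1, Ncaph, Nuf2, Nusap1 and Pttg1 are empty.

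The labels were checked against the arrays before the members were compared. Hnf4a fell in the mutants, with a log2 signal between 11.97 and 12.23 in controls and between 10.09 and 10.17 in mutants, a log2 fold change of -1.94 (SE 0.10, limma adjusted p = 0.000788), where SE is the standard error of the difference and the p is adjusted over all probe sets. Xist, which silences the second X chromosome of females, was between 9.94 and 10.96 in controls and between 5.03 and 5.32 in mutants. Y-linked Eif2s3y, Kdm5d and Uty were higher in every mutant than in every control. The labels call mutant replicate 1 female, and by these genes it was male like the other mutants, while the 3 controls were female, so sex and genotype cannot be told apart in any comparison here. Y-linked genes gave signals from 2.75 to 4.01 in the female controls, where these probe sets have no target. Every representative probe set of the 41 genes had a mean above that range in both groups. That range is not a ceiling for background, as Xist still gave between 5.03 and 5.32 in the male mutants. The control means of Ncapg (4.57), Ndc80 (4.67), Bub1 (5.05) and Ttk (5.18) were no higher than that. Markers of smooth muscle and matrix set mutant replicate 2 apart. The summed level of 15 smooth muscle markers, on the log2 scale, was between 15.55 and 15.65 in controls, 15.36 and 15.22 in mutant replicates 1 and 3 and 11.82 in mutant replicate 2. For 12 gut epithelium markers it ranged between 16.41 and 16.54 in controls and between 16.51 and 16.63 in mutants.

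Nearly every mitosis gene had a higher mean level in the colon of the mutants, by less than a doubling for most, and a single gene passed the test over all probe sets. Of the 41 genes, 40 had a log2 fold change above 0 (60.4% of all genes did), and the median was 0.75, or a ratio of 1.68, beside a median of 0.05 over all 18193 genes. Single genes ran from -0.16 for Pttg1 to 1.12 for Spc25, and 35 were at 0.5 or more. At an adjusted p under 0.05 from limma, 1 of the 41, Bub1b, rose and none fell, where 0.484% of all genes rose and 0.396% fell. At an unadjusted p under 0.05, 34 were higher and none lower by limma, beside 10.0% of all genes higher and 6.18% lower, and 31 were higher by SAM, beside 9.78%. Every mutant lay above every control for 26 of the 41, where this held for 14.5% of all genes, and every mutant lay below every control for none, where this held for 8.86%. With array weights in limma, 2 genes passed, Bub1b and Ncaph, where 1.18% of all genes were higher. The 7 genes that missed the unadjusted threshold were Ccnb2, Cdc25c, Foxm1, Pttg1, Cenpf, Ect2 and Smc4.

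**Figure D2:**
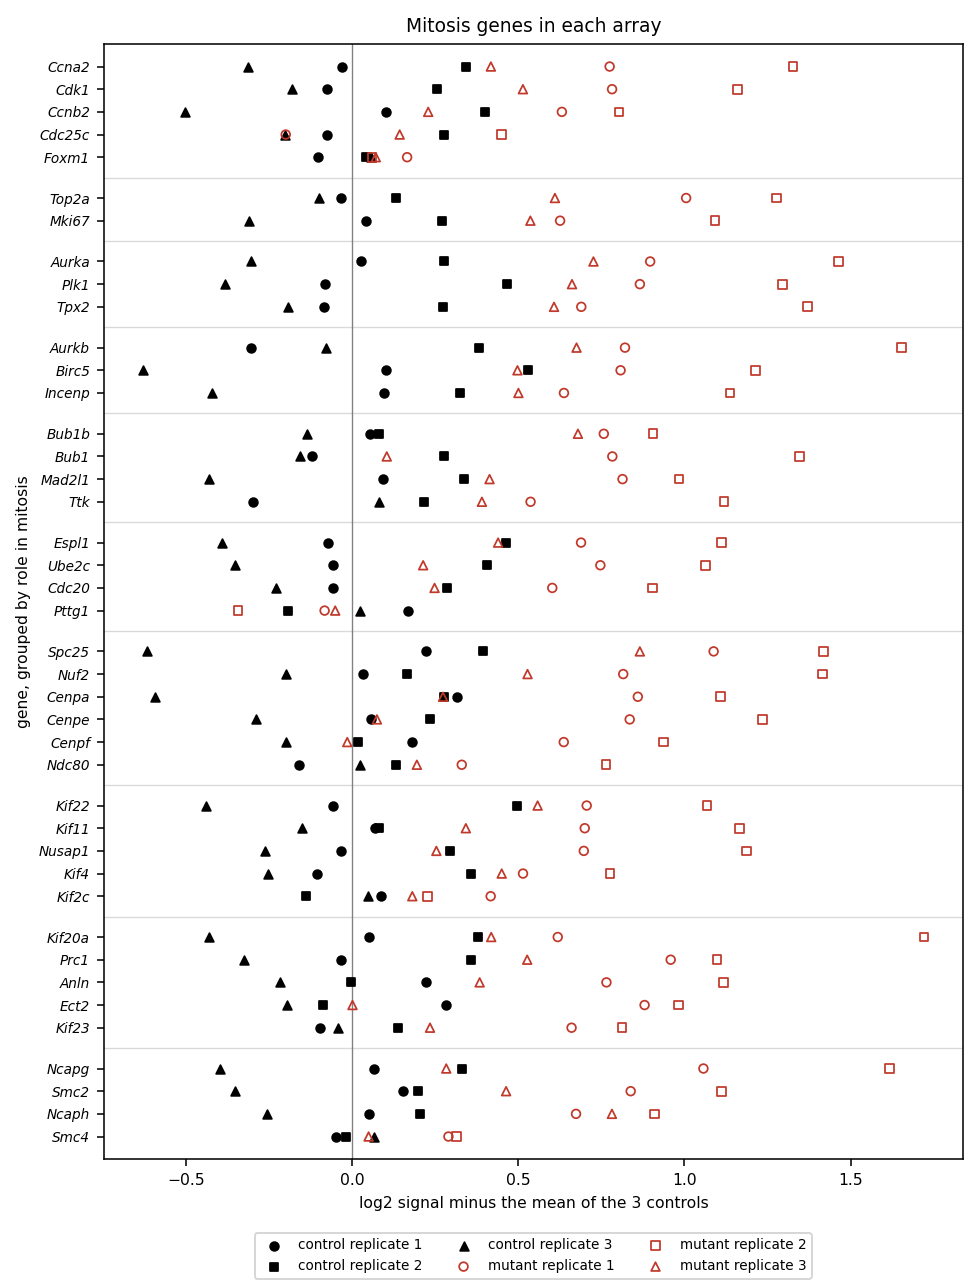
Log2 signal of the 41 mitosis genes in each array after subtracting the control mean (horizontal axis), with controls filled, mutants open and 1 symbol shape a replicate number, grouped by role. Mutant replicate 2 is the rightmost symbol for 38 genes, and mutant replicate 3 is the lowest mutant for 37.

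The arrays of each group stood in much the same order for most of these genes. After subtracting the control mean, the median over the 41 genes was 0.03, 0.28 and -0.25 in the controls, in the order of replicates 1, 2 and 3, and 0.71, 1.11 and 0.41 in the mutants. Mutant replicate 2 was the highest mutant for 38 of the 41 genes, against 44.6% of all genes, and control replicate 2 was the highest control for 33. Mutant replicate 1 lay above every control for 39 genes, mutant replicate 2 for 40 and mutant replicate 3 for 26, where over all genes this held for 30.3%, 41.4% and 29.5%. Where the groups overlapped, control replicate 2 lay above mutant replicate 3 in 12 genes. The SD within a group was large, with a median over the genes of 0.266 in controls and 0.335 in mutants on the log2 scale, beside 0.155 and 0.141 over all genes.

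The array with the highest mitosis levels was the array lowest in muscle RNA. Smooth muscle markers had a median of -0.28, -3.78 and -0.40 in mutant replicates 1, 2 and 3 relative to the mean of the controls, and all 15 had negative log2 fold changes. Fibroblast and matrix markers had -0.29, -3.11 and -0.52, endothelial markers -0.28, -1.62 and -0.45 and macrophage markers -0.25, -1.70 and -0.11. Gut epithelium markers had 0.05, 0.19 and 0.14, and crypt stem cell markers 0.18, -0.08 and 0.00. None of the markers of these cell types passed the limma test. Over all genes, 10.0% were higher and 6.18% lower at an unadjusted p under 0.05 by limma. At an unadjusted p under 0.05, 3 of 15 fibroblast markers and 2 of 8 endothelial markers were lower, 2 of 10 macrophage markers were higher, 4 of 12 epithelial markers were higher and 1 was lower, 2 of 10 stem cell markers were higher and 1 was lower, and no smooth muscle marker was below that p. By SAM no smooth muscle marker was below it either. Every mutant was nevertheless below every control for 11 of the 15, where this held for 8.86% of all genes. Without mutant replicate 2, 8 of the 15 were lower at an unadjusted p under 0.05 by limma, beside 1020 of 18193 genes. Plasma cell markers were low in all mutants, at -1.21, -1.14 and -0.95, with 6 of 7 lower and 1 higher at an unadjusted p under 0.05. T and NK cell markers had -0.32, -0.06 and -0.10, with none of 9 below that p, B cell markers -0.18, -0.55 and -0.21, with 3 of 6 lower, and neutrophil markers 0.13, 0.15 and 0.20, with 1 of 7 higher. The part of these cell types in the mitosis values was not tested.

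**Figure D3:**
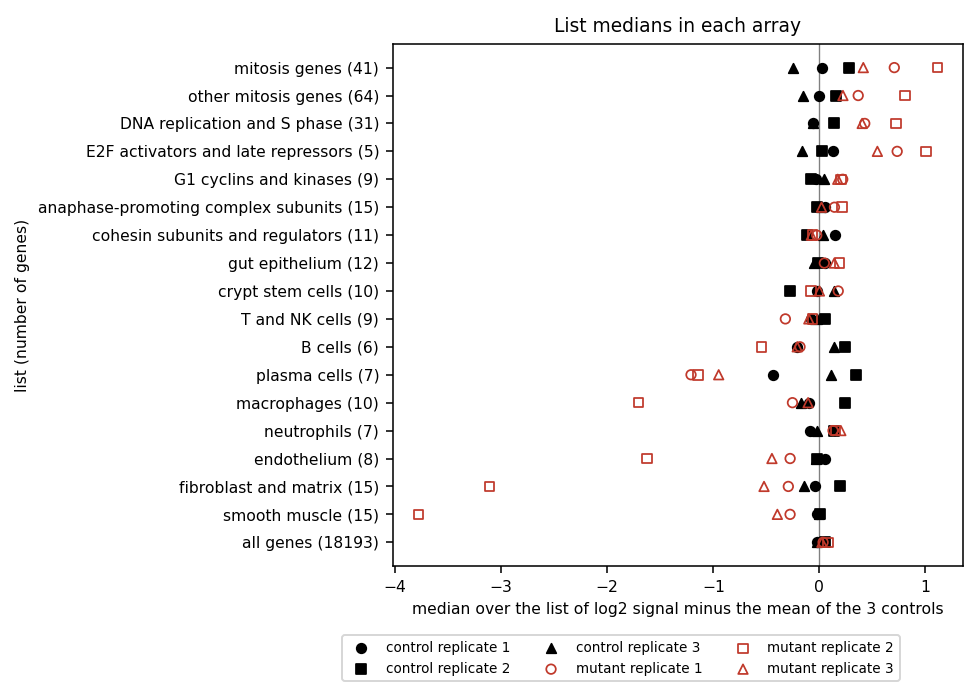
Median over each list of log2 signal after subtracting the control mean (horizontal axis), in each array (controls filled, mutants open, 1 symbol shape a replicate number), for the mitosis genes, other cell cycle lists, markers of cell types and all genes. Mutant replicate 2 is rightmost in the mitosis list and leftmost in smooth muscle, fibroblast, endothelial and macrophage markers.

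Without mutant replicate 2 the median of the 41 genes was 0.57, and 39 were positive (57.5% of all genes were). Mutant replicates 1 and 3 both lay above every control for 26 genes, where this held for 17.1% of all genes. No gene of the list passed limma's test there, the smallest adjusted p being 0.108, and 21 were higher at an unadjusted p under 0.05, beside 6.29% of all genes. The same count, 21, was reached without control replicate 1 and without control replicate 3, with medians of 0.77 and 0.58. The share of all genes in those fits is not given here. All but Pttg1 and Cdc25c kept a positive log2 fold change whichever array was left out.

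**Figure D4:**
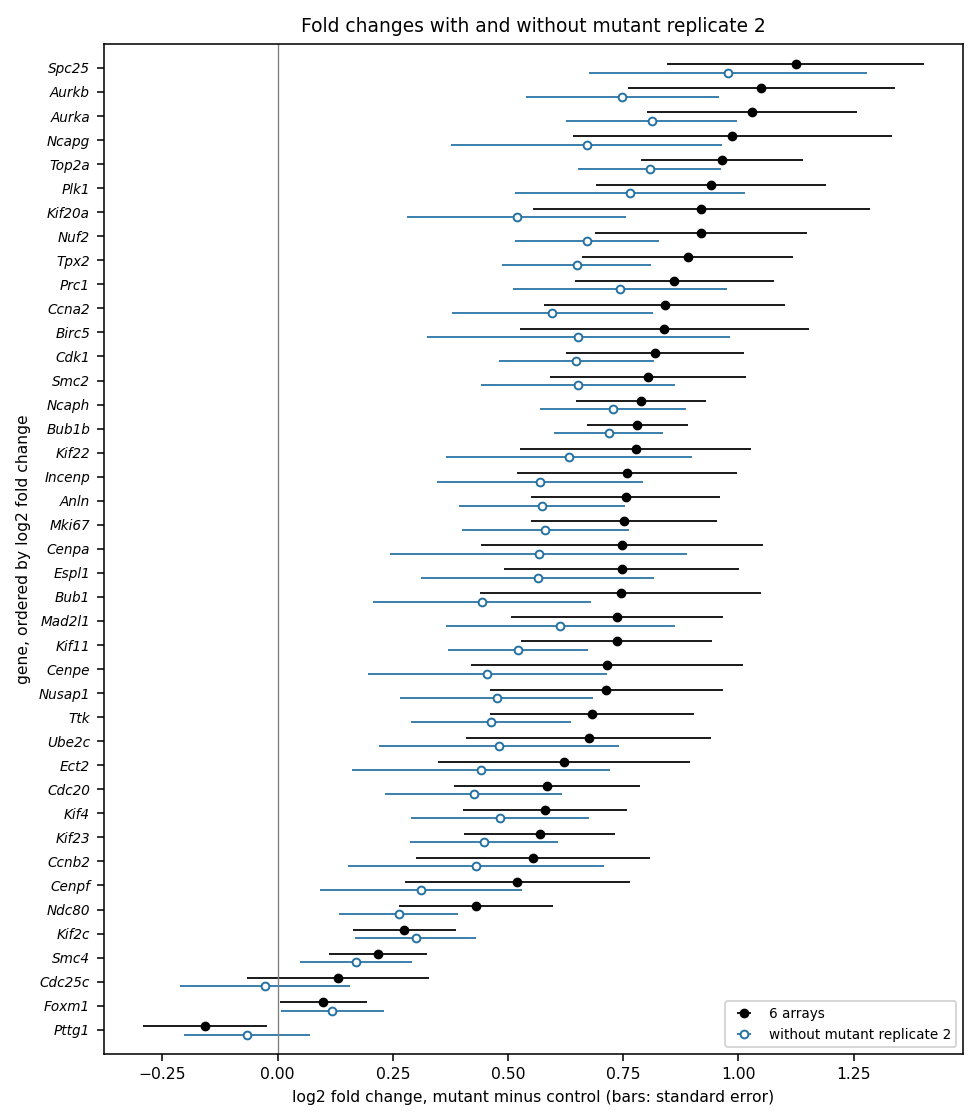
Log2 fold change of each mitosis gene, mutant minus control (horizontal axis; bars, standard error from limma), with all 6 arrays (filled) and without mutant replicate 2 (open). The open circles lie to the left of the filled ones for all genes but Kif2c, Foxm1 and Pttg1, and to the right of 0 for all but Cdc25c and Pttg1.

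Bub1b, which encodes the checkpoint kinase-like protein BUBR1 that binds and holds CDC20, gave log2 signals of 6.51, 6.54 and 6.32 in the controls, in the order of replicates 1, 2 and 3 used throughout, and of 7.22, 7.36 and 7.14 in the mutants. Both groups were tight and lay well apart. It rose with a log2 fold change of 0.78 (SE 0.11, limma adjusted p = 0.0425), a ratio of 1.72. It did not pass with any single array left out, where the adjusted p ran from 0.0538 without control replicate 2 to 0.176 without control replicate 1 and the log2 fold change from 0.71 to 0.83. Of its 2 dimmer probe sets, one gave 0.70 and the other 0.19, and neither passed. The other checkpoint genes had fold changes of the same size and wider spread. Mad2l1, which binds CDC20 in the checkpoint complex, had 0.74 (SE 0.23) and lay higher in every mutant than in every control. Bub1, the kinase that recruits checkpoint proteins to kinetochores, had 0.74 (SE 0.30), and its groups overlapped as mutant replicate 3 (5.15) was below control replicate 2 (5.32). Ttk, the kinase MPS1 that starts the signal, had 4.89, 5.40 and 5.27 in controls and 5.72, 6.30 and 5.58 in mutants. Its groups did not overlap, and its log2 fold change was 0.68 (SE 0.22). A dimmer probe set of Ttk, with means of 3.97 and 3.94 in controls and mutants, lay in the range of Y-linked genes and gave -0.03.

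The kinases of spindle assembly were among the genes with the largest fold changes. Aurka, Aurora A, which matures centrosomes, had 6.09, 6.34 and 5.76 in controls and 6.96, 7.53 and 6.79 in mutants. The lowest mutant was above the highest control, and the log2 fold change was 1.03 (SE 0.23, limma adjusted p = 0.141). A dimmer probe set of Aurka, with means of 3.78 and 3.79 in controls and mutants, lay in the range of Y-linked genes and gave 0.01. Plk1, Polo-like kinase 1, had 0.94 (SE 0.25) and Tpx2, the microtubule protein that activates Aurora A, 0.89 (SE 0.23), both with every mutant above every control. A dimmer probe set of Tpx2 had a smaller error, 0.89 (SE 0.14, limma adjusted p = 0.0545), while 2 others gave 0.32 and 0.24. The chromosomal passenger complex, which corrects faulty attachments, had its 3 subunits on this list higher at an unadjusted p under 0.05, beside 10.0% of all genes. Aurkb, its kinase Aurora B, had 5.57, 6.26 and 5.80 in controls and 6.70, 7.53 and 6.55 in mutants. No mutant fell among the controls, yet mutant replicate 2 stood far above the other mutants, and the log2 fold change of 1.05 (SE 0.29, limma adjusted p = 0.220) became 0.75 without it. Incenp, its scaffold, had 7.36, 7.59 and 6.85 in controls and 7.91, 8.40 and 7.77 in mutants, a log2 fold change of 0.76 (SE 0.24). The 5 probe sets of Incenp disagreed, as the 3 brightest gave 0.76, 0.76 and 0.61 and the 2 dimmest -0.01 and 0.06. Birc5, survivin, had 0.84 (SE 0.31), with mutant replicate 3 (7.89) just under control replicate 2 (7.92). Cdca8, a further subunit of the complex counted below among other genes of mitosis, had 0.63 (SE 0.25) with overlap.

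The engine of mitotic entry was less uniform. Cdk1, the kinase itself, had 7.69, 8.02 and 7.59 in controls and 8.55, 8.93 and 8.28 in mutants, a log2 fold change of 0.82 (SE 0.19, limma adjusted p = 0.160). Ccna2, cyclin A2, had 0.84 (SE 0.26), with no overlap, and its other probe set gave 0.93. Ccnb2, cyclin B2, had 0.55 (SE 0.25) with overlapping groups. Cdc25c, a phosphatase that activates CDK1, showed no separation of the groups, at 5.31, 5.66 and 5.19 in controls and 5.19, 5.84 and 5.53 in mutants. Its log2 fold change of 0.13 (SE 0.20) turned to -0.028 without mutant replicate 2. The dimmer probe set of Cdc25c gave 0.29 (SE 0.15), also with overlap. Foxm1, the transcription factor of the G2 and M phase, had 7.21, 7.36 and 7.37 in controls and 7.48, 7.37 and 7.38 in mutants on its brightest probe set. The groups did not overlap but were almost level, with a log2 fold change of 0.10 (SE 0.09). Its 4 probe sets gave different answers. The one next in signal had 0.20 (SE 0.11), and the third, at 5.29, 5.72 and 5.43 in controls and 5.91, 6.77 and 5.94 in mutants, had 0.73 (SE 0.25), with every mutant above every control. The dimmest, with means of 2.66 and 2.95, did not exceed the range of Y-linked genes and gave 0.29. A further probe set is shared with Tex52 and Pebp1 and was not used. Mki67, which encodes the Ki67 antigen that coats mitotic chromosomes, had 8.52, 8.74 and 8.16 in controls and 9.10, 9.57 and 9.01 in mutants. All mutants were above all controls, and the log2 fold change was 0.75 (SE 0.20, limma adjusted p = 0.207). Top2a, the topoisomerase that untangles sister chromatids, had 0.96 (SE 0.18, limma adjusted p = 0.0902) on its brightest probe set, and its 2 dimmer probe sets gave 0.09 each.

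At the kinetochore the largest fold change of the whole list was found. Spc25, a subunit of the NDC80 complex that grips microtubules, had 6.41, 6.58 and 5.57 in controls and 7.28, 7.61 and 7.05 in mutants. Control replicate 3 was low and every mutant was above every control, and the log2 fold change was 1.12 (SE 0.28, limma adjusted p = 0.179), a ratio of 2.18. It was 0.98 without mutant replicate 2 and 0.82 without control replicate 3, and the mean of all its probe sets had 0.60. Its partners on this list, Nuf2, at 0.92 (SE 0.23), and Ndc80, at 0.43 (SE 0.17), also showed no overlap. Spc24, a further subunit of the complex counted below among other genes of mitosis, had 0.44 (SE 0.17) with overlap. Cenpa, the centromeric histone, had 6.75, 6.72 and 5.84 in controls and 7.30, 7.55 and 6.71 in mutants. Mutant replicate 3 fell just below control replicates 1 and 2, control replicate 3 was the lowest array, and the log2 fold change was 0.75 (SE 0.31). Dimmer probe sets of Cenpa gave -0.01 and 0.12. Cenpe, a kinesin that carries chromosomes to the spindle equator, had 0.71 (SE 0.30) with overlap. Cenpf, a large protein of the outer kinetochore, had 0.52 (SE 0.24), also with overlap. Dimmer probe sets gave 0.51 for Cenpe and 0.24 and 0.17 for Cenpf.

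Genes of anaphase held the exception of the list. Pttg1, securin, the inhibitor of separase, had 11.26, 10.90 and 11.12 in controls and 11.01, 10.75 and 11.05 in mutants, so that the groups overlapped and mutant replicate 2 was the lowest array. Its log2 fold change was -0.16 (SE 0.13), and its other probe sets gave -0.08 and -0.19. Espl1, separase, had 0.75 (SE 0.26), Cdc20, the activator of the anaphase-promoting complex, 0.59 (SE 0.20), and Ube2c, its ubiquitin-conjugating enzyme, 0.67 (SE 0.27). On the brightest probe set of each of these 3 genes control replicate 2 was above mutant replicate 3, so the groups overlapped. Of the dimmer probe sets of Cdc20, one gave 0.72 (SE 0.21) with every mutant above every control, and the other gave 0.34 with overlap. Among spindle motors, Kif11, which pushes the spindle poles apart, had 0.74 (SE 0.21), Kif22, which pushes on chromosome arms, 0.78 (SE 0.25), and Kif4, an X-linked kinesin of chromosomes and the central spindle, 0.58 (SE 0.18), all without overlap. Kif2c, which depolymerises microtubules at centromeres, had 0.27 (SE 0.11) on its brightest probe set and 0.61 and 0.60 on the next 2. Nusap1, which bundles spindle microtubules, had 0.71 (SE 0.25) with overlap, and 0.18 on a dimmer probe set.

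Every mutant lay above every control in 14.5% of all genes, and in cytokinesis this held for 4 of the 5 genes. They were Prc1, the bundler of the central spindle, at 0.86 (SE 0.22), Anln, the actin-binding protein anillin, at 0.76 (SE 0.21), Kif23, of centralspindlin, at 0.57 (SE 0.16), and Kif20a, a kinesin of the central spindle, at 0.92 (SE 0.37). Of all genes in the list Kif20a changed most without mutant replicate 2, with 7.27 there, 6.17 in mutant replicate 1 and 5.97 in mutant replicate 3, and its log2 fold change was 0.52 without that array. Ect2, the activator of RhoA, had 0.62 (SE 0.27) with overlap. Of the condensin genes, Ncaph, a subunit of condensin I, had 6.44, 6.60 and 6.14 in controls, 7.07, 7.31 and 7.18 in mutants, without overlap, and a log2 fold change of 0.79 (SE 0.14, limma adjusted p = 0.0858). Ncapg, also of condensin I, had 0.99 (SE 0.35) with overlap. Its other probe set, nearly as bright, gave 0.68 (SE 0.17) with every mutant above every control. The core ATPase Smc2 had 0.80 (SE 0.21) without overlap on its brightest probe set. The dimmer probe sets of Smc2 gave 0.50 (SE 0.47), 0.21, 0.37 and 0.05, all with overlap. Its partner Smc4 had 0.22 (SE 0.11) with overlapping groups, and all arrays lay between 9.28 and 9.64. Read against the promoters shown above, the 26 genes with a CHR form had a median log2 fold change of 0.75, and the 7 measured genes whose windows held none had 0.74.

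Other genes of mitosis had positive fold changes too. Beside the counts of each list from here on, 10.0% of all genes were higher and 6.18% lower at an unadjusted p under 0.05 by limma. Of 64 further genes, 62 lay above 0 and the median log2 fold change was 0.45, but none passed the limma test, while 34 were higher and none lower at an unadjusted p under 0.05 (32 by SAM). Ncapg2, a subunit of condensin II, had 0.82 (SE 0.12, limma adjusted p = 0.0538), Racgap1, the partner of Kif23 in centralspindlin, 0.99 (SE 0.21, limma adjusted p = 0.132), and Cdc25b, a phosphatase that starts CDK1 activation, 1.04 (SE 0.23, limma adjusted p = 0.137). Subunits of the anaphase-promoting complex and of cohesin were nearer 0. The 15 subunits and activators of the anaphase-promoting complex had a median of 0.11, with none called, 5 higher and none lower at an unadjusted p under 0.05 (4 by SAM), led by Anapc15 at 0.62 (SE 0.17), Anapc2 at 0.27 (SE 0.10) and Fzr1 at 0.36 (SE 0.13). The 11 cohesin genes had a median of -0.07, none called, and the 1 higher at an unadjusted p under 0.05, by limma and by SAM, was Esco2, the cohesin acetyltransferase of S phase, at 0.88 (SE 0.30). Next by p were Stag2, an X-linked cohesin subunit, at -0.35 (SE 0.16) and Nipbl, the cohesin loader, at -0.32 (SE 0.15), both with overlapping groups.

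**Figure D5:**
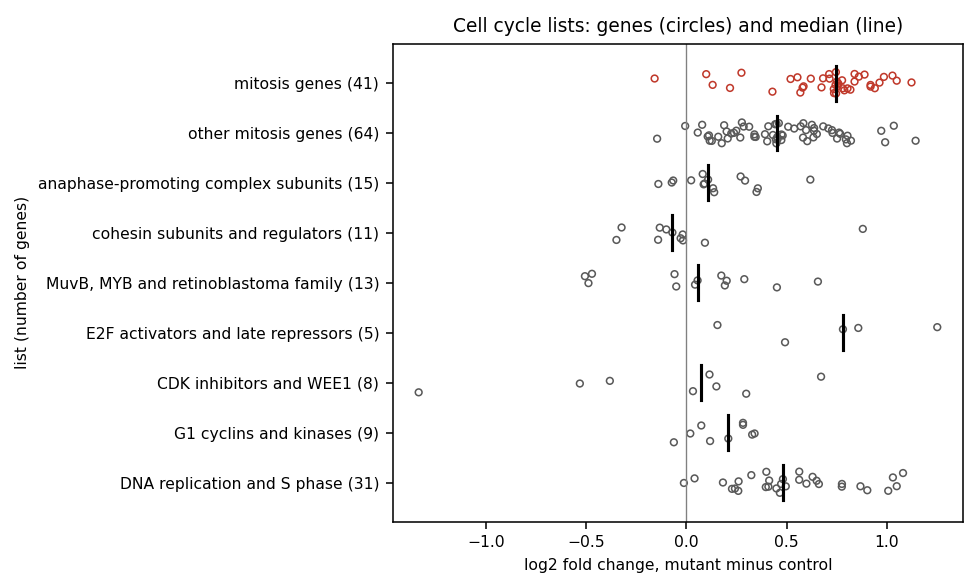
Log2 fold changes, mutant minus control (horizontal axis), of single genes (circles) in the mitosis list and in 8 other cell cycle lists, with the median of each list (line). The mitosis list lies around 0.75, other mitosis genes around 0.45 and S phase genes around 0.48, while subunits of the anaphase-promoting complex and of cohesin lie near 0.

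Genes of S phase and E2F factors were higher beside the mitosis genes. Of 31 genes of DNA replication and S phase, 30 were positive, with a median of 0.48, and 1 rose, Cdc6, the loader of the replicative helicase, at 1.03 (SE 0.12, limma adjusted p = 0.0252), while 23 were higher at an unadjusted p under 0.05. Pola1, DNA polymerase alpha, had 1.01 (SE 0.15, limma adjusted p = 0.0545) and Mcm3, a helicase subunit, 1.08 (SE 0.17, limma adjusted p = 0.0582). Cdc6 passed without control replicate 2 and without mutant replicate 1 and with no other array left out, and its log2 fold change stayed between 0.95 and 1.12. Mcm3 passed without mutant replicate 1 and Mcm5 without control replicate 2. E2f7, a repressor of E2F targets that is made late in the cycle, rose, with 5.20, 5.22 and 5.16 in controls, 5.93, 6.28 and 5.95 in mutants and a log2 fold change of 0.86 (SE 0.12, limma adjusted p = 0.0436). With any single array left out it did not pass, at adjusted p from 0.0609 to 0.196. E2f8 had 0.78 (SE 0.14, limma adjusted p = 0.0924) and E2f2 1.25 (SE 0.27, limma adjusted p = 0.134). In S phase genes as in mitosis genes mutant replicate 2 was highest, at medians of 0.43, 0.72 and 0.40 in mutant replicates 1, 2 and 3. The medians of replicates 1 and 3 were nearly level there.

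Regulators that hold or release the cycle moved less or both ways, and none passed the limma test. Of 13 genes of MuvB, MYB and the retinoblastoma family, with a median of 0.06, 3 were higher and 3 lower at an unadjusted p under 0.05 by limma and by SAM. Tfdp2, a partner of E2F factors, had -0.51 (SE 0.12, limma adjusted p = 0.170), Rb1, the retinoblastoma protein, -0.47 (SE 0.12, limma adjusted p = 0.196), and Lin54, the MuvB subunit that binds the CHR, 0.66 (SE 0.17, limma adjusted p = 0.189). Among 8 genes of CDK inhibitors and WEE1, with a median of 0.07, Cdkn1c, p57, had 7.30, 8.32 and 8.10 in controls and 6.78, 6.61 and 6.32 in mutants. Every mutant was below every control, and the log2 fold change was -1.34 (SE 0.27, limma adjusted p = 0.112). Cdkn1b, p27, had -0.53 (SE 0.21, limma adjusted p = 0.351), Cdkn1a, p21, 0.67 (SE 0.31, limma adjusted p = 0.423), with overlap, and Cdkn1c and Cdkn1b were the 2 lower at an unadjusted p under 0.05, by SAM too. The 9 cyclins and kinases of G1 had a median of 0.21, with 2 higher at an unadjusted p under 0.05 by limma and by SAM, namely Ccnd2, cyclin D2, at 0.34 (SE 0.11, limma adjusted p = 0.275), and its partner kinase Cdk4, at 0.21 (SE 0.09, limma adjusted p = 0.375). Ccne1, cyclin E1, followed at 0.28 (SE 0.13).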

How the data were processed

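Total RNA of each mouse was hybridised to its own Affymetrix mouse genome array. The deposited values are log2 signals that the authors computed by robust multi-array averaging (RMA), and they were used as deposited. The signal that a dim probe set can show limits the precision, as does the number of arrays. Leaving aside 64 control probe sets, the remaining 45037 were compared, mutant minus control, with limma 3.58.1 in R 4.3.3 (lmFit and eBayes, two-sided, Benjamini-Hochberg adjustment over all probe sets, threshold 0.05). SAM, the test of the study's methods, was run over the 20 splits of the arrays. Gene symbols came from the platform annotation, where 34945 probe sets carried 1 symbol, 932 several and 9160 none, and each gene was read from its brightest probe set with a single symbol.

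The members, the other cell cycle lists, the markers and the tests were chosen with earlier results of these data known. Every member is named. Values per array are given for members that passed the test, for the 3 largest and 3 smallest fold changes, for members whose probe sets disagreed in sign, and for Mki67, Aurka, Cdk1 and Foxm1. The values of Bub1, Birc5, Kif20a, Ncaph, Smc4, E2f7 and Cdkn1c shown per array are further choices, made after they were seen, as were those of the promoters printed. Of each other cell cycle list the genes that passed and the 3 with the smallest p are named. Cdca8 and Spc24, subunits of complexes described here, are named as well, a choice made after their values were seen. Each array was left out in turn, and the replicate block, array weights, a trended and robust variance prior, quantile normalization, scaling to gut epithelium markers, a filter on dim probe sets, sex chromosome genes left out and the mean of all probe sets of a gene were tried as alternatives. The code was tested on simulated data. Promoters are RefSeq sequences of GRCm38.p6, and 34 of 42 members matched by symbol. Protein motifs were not analysed here.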

Additional observations from a re-analysis of the deposited data

How the results depend on the processing

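Bub1b was the 1 gene of the list that passed the limma test with all arrays, and the count was 0 whichever array was left out (from 0 to 0). It was 0 with the trended and robust variance prior and 0 by SAM, 2 with array weights (Bub1b and Ncaph) and 3 with scaling to gut epithelium markers (Bub1b, Ncaph and Top2a). That scaling subtracts 1 value per array from every probe set, so all log2 fold changes rose alike, by 0.14. The median of the members relative to all genes, 0.70, could therefore not change under it. The value subtracted is the median raw level of 12 unlike markers, which averaged lower in the mutants. Relative to the control mean of each marker, though, their medians were 0.05, 0.19 and 0.14 in mutant replicates 1, 2 and 3. The share of all genes called with this scaling is not given here. With the mean of all probe sets the count was 1, Tpx2 in place of Bub1b. Quantile normalization, the filter on dim probe sets, which kept 37 members, and leaving out sex chromosome genes each gave 1, Bub1b. The number higher at an unadjusted p under 0.05 was 34 with all arrays, beside 10.0% of all genes. It ran from 21 to 37 with an array left out, and was 21 without control replicate 1, without control replicate 3 or without mutant replicate 2. Without mutant replicate 2, 6.29% of all genes were higher, and the shares in the other fits with an array left out are not given here. Cdc25c ran from -0.028 to 0.296 with an array left out and reversed without mutant replicate 2 alone. In these alternatives the median of the members stayed between 0.57 and 0.93, and 595 of 610 values of single members kept their direction and their side of the threshold. That share says little, as Bub1b alone was called with all arrays and the other members had no call to lose. Of the remaining values, 10 were Bub1b losing its call, 4 were calls gained and 1 was a reversal. The cause of the lost calls was not tested.

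The deviations of arrays with the same replicate number correlated at -0.02, 0.25 and -0.15, and those of arrays with different numbers at -0.29 to 0.38. With 3 arrays a group these values cannot settle whether the replicate numbers pair the arrays. With the replicate block 0 members passed and 37 were higher at an unadjusted p under 0.05, and the share of all genes in that fit is not given here. In the promoters, a window of 150 bases before the start left the share of members with TTTGAA at 73.5%, beside 9.3% of measured genes (15.7% in the full window), and gave 70.6% for CCAAT, beside 33.4% (42.0% in the full window).

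With 3 arrays a group, the smallest two-sided p of an exact test on 1 gene is 0.1, so the calls rest on the variance that limma pools over probe sets. Of 91 member probe sets, 8 had both group means in the range of Y-linked genes in the controls and say little of their gene.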
